A study of Mus musculus with 6 samples.

Results

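Sf3b4 lies on mouse chromosome 3, and 217 genes around it were read deeply enough to compare between embryo heads that lack it in neural crest cells and wild-type heads. They were chosen by position, depth and a list of names to leave out. Each starts within 10 Mb of the Sf3b4 start on the mm10 assembly, each has at least 60 counts summed over all pools, and Sf3b4, 6 other named genes and several families (histones, S100, Efna, Zfp, ribosomal, Atp5, Sema and Arhgef genes) are left out. Of 803 gene IDs in the interval 250 reached 60 counts, 33 of these were left out by name, and 217 remained, out of 54532 gene IDs in the files. All 217 entered the test of 14008 genes. The start of a gene is here its lower coordinate, whatever its strand.

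The samples were heads of mouse embryos at embryonic day 8.5, before any abnormality of form, with 3 heads per pool and 3 pools per genotype. The mutant pools came from embryos with Sf3b4 deleted in neural crest cells, and the wild-type pools from embryos with the wild-type Sf3b4 genotype. Sample titles call the mutants homozygous nulls, while the genotype entries speak of a neural crest mutant, which is the reading used here. The sources used here do not name the Cre driver or the strain background, nor say whether the wild-type embryos carried Cre or a conditional allele. RNA was sequenced from whole heads, so a lower value can stand for fewer cells of a type or for less RNA per cell, and the counts cannot tell these apart.

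SF3B4 is a subunit of the SF3B complex, the part of the U2 small nuclear ribonucleoprotein that helps recognise the branch site of introns. Genes close together on a chromosome are inherited together, so DNA that flanks a modified allele tends to stay with that allele through a breeding scheme. Neighbouring genes can also share enhancers and chromatin domains. A comparison by position asks whether the genes around the modified locus differ between the genotypes more often, or by more, than genes elsewhere. In these pools, effects of the lost gene and of the DNA inherited with the modified allele cannot be told apart.

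The interval holds tissue-specific gene clusters that were nearly silent in the embryonic head. Of the 217 genes, 188 are protein coding and 29 are pseudogenes or noncoding RNAs by GENCODE M21, with 113 on the plus strand and 104 on the minus strand. They are unevenly placed, 143 at lower coordinates than Sf3b4 and 74 at higher ones, from -9.95 to 9.79 Mb (negative distances are toward lower coordinates). The epidermal differentiation complex, which encodes the protein shell of mature skin cells, lies in a stretch with few of the 217 genes, and its genes outside the S100 family spanned -4.09 to -2.7 Mb. Its 21 late cornified envelope genes had 1 count in all 6 pools together, and its 17 small proline-rich genes had 3. Its 9 filaggrin, hornerin, trichohyalin and related genes had 85 counts, of which Tchh held 58. At the threshold of 60 counts, Anxa9 was the lowest gene kept with 61 counts, and Gm43466 the highest gene left out with 59.

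The mutant pools held 7420956 to 12251910 counts and the wild-type pools 6930827 to 11797020. The 217 genes took 1.26% to 1.30% of the counts in the mutant pools and 1.28% to 1.29% in the wild-type pools. Markers of the head tissues were present, among them Otx2 of the forebrain and midbrain at 124.2 CPM (a count scaled for library size) on average in the mutant pools and 123.6 CPM in the wild-type pools. Marker lists of some tissues moved with genotype. The summed level of 6 neural crest markers was 203 to 228 CPM in the mutant pools and 281 to 302 CPM in the wild-type pools, with Sox10, Tfap2b and Sox9 lower and none higher. The sum of 5 surface ectoderm markers was 434 to 491 CPM in the mutant pools and 378 to 403 CPM in the wild-type pools, with no gene past the test. That of 4 endothelial markers was 205 to 219 CPM in the mutant pools and 168 to 190 CPM in the wild-type pools, with Kdr higher. None of these markers was at 0, and their part in the results below was not tested. Mutant replicate 3 and wild-type replicate 1 each had 1 count on 4 Y-linked genes, against 344 to 664 counts in the other pools.

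Sf3b4 itself (ENSMUSG00000068856, plus strand of chromosome 3, 96172332 to 96177564) was read at 56.1, 64.2 and 60.9 CPM in the mutant pools and at 77.7, 72.8 and 63.9 CPM in the wild-type pools. The ranges of the genotypes overlapped only between the second mutant pool and the third wild-type pool. The log2 fold change, mutant over wild type, was -0.24 (SE 0.0918, n = 3 pools each) and fell short of the threshold in edgeR's quasi-likelihood test (adjusted p = 0.128).

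Upstream sequence is shown for genes close to Sf3b4 that passed the test, so that the elements next to their starts can be seen beside their values: Arnt and Acp6, which were lower in the mutant pools, and Txnip, which was higher. Polr3c, which was lower, also passed close to Sf3b4. It is not shown, as the RefSeq promoters gave no window next to its GENCODE start. Each run is the 250 bases before the RefSeq transcript start on GRCm38.p6, read 5′ to 3′ on the strand of the gene. Capitals mark matches, on either strand, to the E-box CACGTG, to the CCAAT box (read as ATTGG when it lies on the other strand), to the TATA box letters TATAAA, or to the GC box GGGCGG, which reads as CCGCCC there. A pair of CATG cores of the p53 element, 6 bases apart, was searched too and matched none of these windows. No marked matches overlap. Only these letters were searched, so variants of the elements are not marked.
Arnt, chr3:95434140-95434389, plus strand: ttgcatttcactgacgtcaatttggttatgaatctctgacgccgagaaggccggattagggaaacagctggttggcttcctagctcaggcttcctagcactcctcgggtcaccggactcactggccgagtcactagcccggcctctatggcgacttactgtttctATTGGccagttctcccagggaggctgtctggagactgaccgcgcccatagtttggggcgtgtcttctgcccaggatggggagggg
Txnip, chr3:96557707-96557956, plus strand: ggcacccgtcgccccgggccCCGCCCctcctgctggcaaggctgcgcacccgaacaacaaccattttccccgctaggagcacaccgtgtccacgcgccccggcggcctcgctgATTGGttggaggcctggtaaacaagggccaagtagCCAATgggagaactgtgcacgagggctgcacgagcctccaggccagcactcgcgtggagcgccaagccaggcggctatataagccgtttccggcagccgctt
Acp6, chr3:97158527-97158776, plus strand: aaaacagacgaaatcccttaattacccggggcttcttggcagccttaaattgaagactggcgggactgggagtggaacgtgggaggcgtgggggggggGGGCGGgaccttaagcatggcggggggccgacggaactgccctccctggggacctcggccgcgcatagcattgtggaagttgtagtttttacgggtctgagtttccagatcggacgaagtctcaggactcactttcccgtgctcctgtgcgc
Arnt holds 1 CCAAT match, 85 bases before its start. Txnip holds 2 CCAAT matches, 137 and 102 bases before its start, and 1 GC box. Acp6 holds 1 GC box, 152 bases before its start. Of 32536 distinct promoter windows of this length, 33.8% hold CCAAT, 33% GGGCGG, 12.3% TATAAA, 6.04% CACGTG and 0.464% the p53 core pair. The GC content of the windows was 57.2% for Arnt, 66.8% for Txnip and 59.6% for Acp6, against a median of 52.4% over all windows. A RefSeq promoter was found for 163 of the 217 genes.

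Across the interval 21 of the 217 genes changed, of which 8 rose and 13 fell in mutant heads. The test was edgeR's two-sided quasi-likelihood test, with Benjamini-Hochberg adjustment over all genes tested and a threshold of 0.05. That is 9.68% of the genes, beside 6.52% of all genes tested. The genome-wide shares by direction were 2.65% higher and 3.88% lower. After correction for gene length and GC content the split in the interval was 15 higher and 9 lower. On the 18 other autosomes the share ran from 5.44% to 9.62%, so the interval stood just above the top of that range. Of the 33 genes left out by name 7 changed (21.2%), and with them included 28 of 250 changed (11.2%), 14 in each direction. The median size of the log2 fold change was 0.158 in the interval and 0.158 over all genes tested. The groups did not overlap in 59 genes (27.2%), beside 28.3% of all genes tested. Changes over 2-fold were found in 4 genes (1.84%), beside 1.63%. Most of the interval changed by little, with 149 genes (68.7%) within 0.25 on the log2 scale, beside 69.4% of all genes tested.

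The count in the interval moved with the count over all genes in most fits with a pool left out, but not in all. It was 6 of 217 without mutant replicate 1 (2.76%, beside 1.61% of all genes). With wild-type replicate 3 left out it was 27 (12.4%, beside 12.7%). Without wild-type replicate 1 the count in the interval fell from 21 to 14, while that over all genes rose from 914 to 989. The share in the interval was then lower than that of all genes, at 6.45% beside 6.97%. The count was 8 without mutant replicate 2 (3.69%, beside 2.7%) and 8 without mutant replicate 3 (3.69%, beside 3.06%). With wild-type replicate 2 left out the count was 9 (4.15%, beside 2.55%). Among the 4 pools that had Y-linked reads 9 genes passed (4.15%, beside 3.75%).

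**Figure D1:**
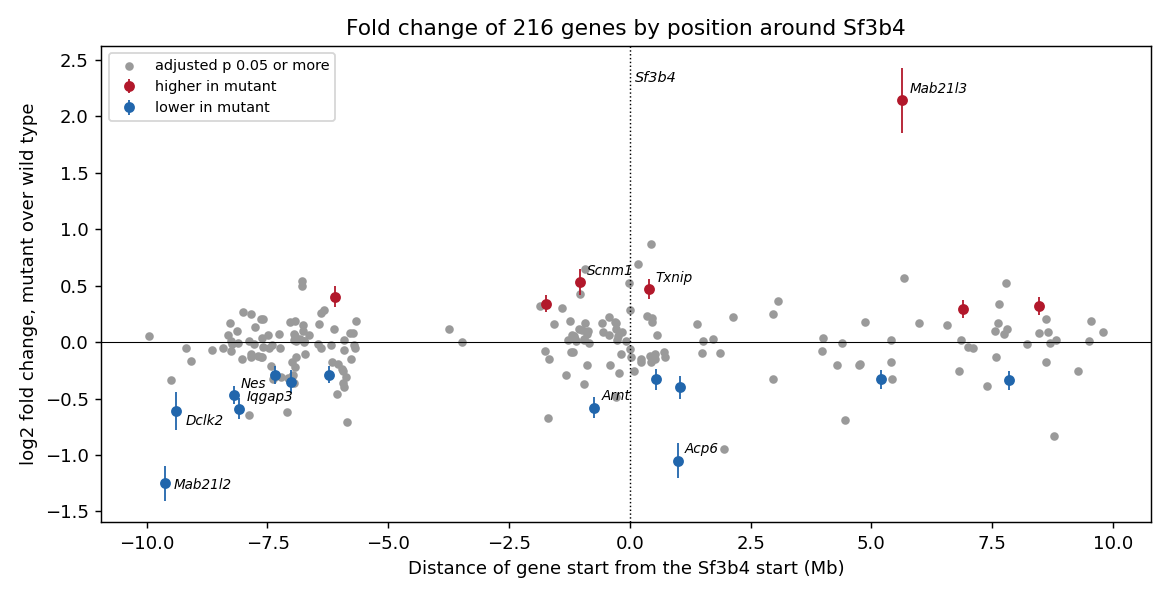
Fold change of 216 of the 217 genes (vertical axis, log2 mutant over wild type) against the distance of its start from the Sf3b4 start (horizontal axis, Mb), with red points for genes higher in the mutant pools, blue for lower, grey for genes not past the threshold, and bars for 1 standard error. Points of both colours lie on both sides of Sf3b4, and the largest changes, Mab21l3 at 5.64 Mb and Mab21l2 at -9.63 Mb, are far from it.

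Genes past the threshold lay at most distances from Sf3b4. Within 1 Mb, 4 of 48 genes changed (8.33%), between 1 and 2.5 Mb 4 of 28 (14.3%), between 2.5 and 5 Mb 0 of 13, and between 5 and 10 Mb 13 of 128 (10.2%). The class from 1 to 2.5 Mb rests on few genes, and it held 0 of 28 without mutant replicate 1 and 1 of 28 without mutant replicate 2 or mutant replicate 3. In the class from 2.5 to 5 Mb, edgeR, DESeq2 and limma-voom each called 0 genes, 2 had an unadjusted p under 0.05, and 1 gene passed after correction for gene length and GC content. The median size of the log2 fold change was 0.167, 0.155, 0.192 and 0.150 in these classes, in order of distance. Beyond the interval on chromosome 3, 6 of 81 genes changed between 10 and 20 Mb (7.41%) and 26 of 364 farther away (7.14%). At lower coordinates 12 of 143 genes changed (8.39%), 4 higher and 8 lower, and at higher coordinates 9 of 74 (12.2%), 4 higher and 5 lower.

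**Figure D2:**
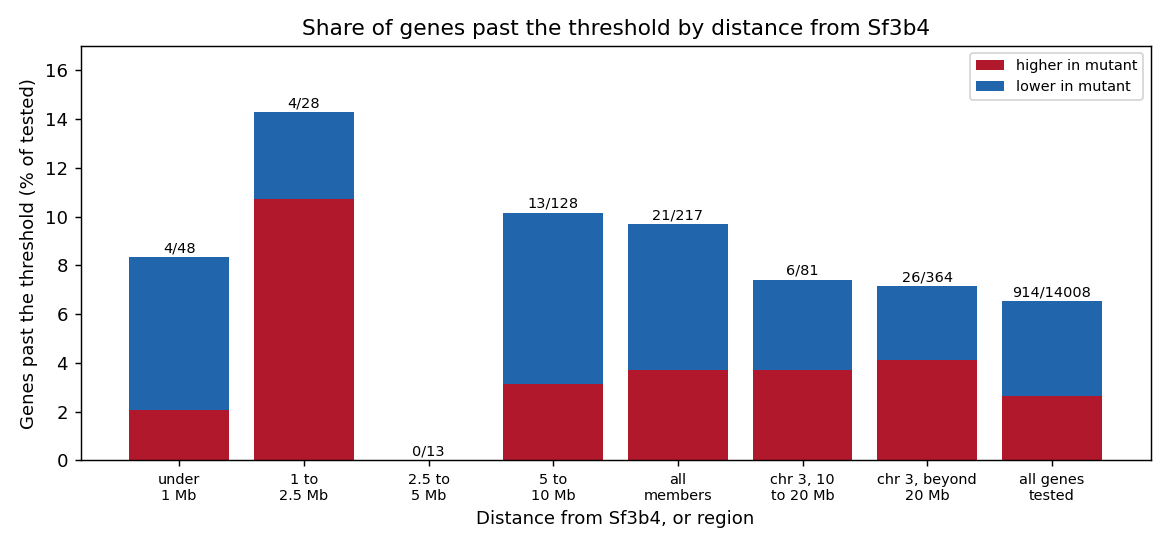
Share of tested genes past the threshold (vertical axis, percent) by distance from Sf3b4 and in comparison regions (horizontal axis), split into genes higher (red) and lower (blue) in the mutant pools, with the number past the threshold over the number tested above each bar. The bars run from 0 of 13 genes at 2.5 to 5 Mb to 4 of 28 at 1 to 2.5 Mb, with all genes tested at 914 of 14008.

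In order along the chromosome, the 21 genes formed 20 neighbouring pairs, of which 13 changed in the same direction and 7 in opposite directions. No such count was made for other regions, so this count has no background here. Up to Atp8b2 at -6.23 Mb, the first 7 genes past the threshold from the low end were all lower: Mab21l2, Dclk2, Nes, Iqgap3, Gon4l, Clk2 and Atp8b2. Among them Dclk2, Gon4l and Atp8b2 missed the threshold after correction for gene length and GC content. Tpm3, Mrpl9 and Scnm1, farther along, were higher. From Scnm1 to the high end, higher and lower genes alternated more often. Genes that did not pass lay between nearly all of these. Acp6 and Bcl9 were the exception, as direct neighbours in the set, with lower coordinates 0.0449 Mb and 5′ ends 0.139 Mb apart. In the stretch from Bcl9 to Igsf3, 4.17 Mb with 18 genes between them, edgeR, DESeq2 and limma-voom called 0 genes, and 3 had an unadjusted p under 0.05 with edgeR.

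None of the 6 nearest genes on either side passed with edgeR, DESeq2 or limma-voom, and 0 of the 12 had an unadjusted p under 0.05 with edgeR. DESeq2 gave no adjusted p for the noncoding Gm24830, so it did not judge that gene. The pools of the genotypes overlapped in all of them but Plekho1, while they did not overlap in 28.3% of all genes tested. Otud7b (-0.07 Mb), which encodes a deubiquitinase, was read at 70.1, 73.0 and 68.5 CPM in the mutant pools and at 67.6, 67.2 and 75.7 CPM in the wild-type pools, a log2 fold change of 0.01 (edgeR adjusted p = 0.977, SE 0.0813, n = 3 pools each). The mutant pools lay within the range of the wild-type pools. Vps45 (-0.17 Mb), needed for vesicle fusion with endosomes, had a log2 fold change of 0.09 (SE 0.119), and Plekho1 (-0.18 Mb) of -0.11 (SE 0.0835). On the other side Bola1 (0.02 Mb), which encodes a mitochondrial protein of the BolA family, had 21.2, 20.5 and 23.2 CPM in the mutant pools and 26.3, 19.6 and 24.4 CPM in the wild-type pools, a log2 fold change of -0.13 (SE 0.119). Terc (0.24 Mb), the RNA template of telomerase, had 14.8, 18.7 and 19.1 CPM in the mutant pools and 20.8, 16.7 and 21.3 CPM in the wild-type pools, a log2 fold change of -0.18 (SE 0.133).

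The other nearest genes had few reads, so small changes in them were not detectable at this depth. Mtmr11 (0.52, SE 0.327), which starts closest to Sf3b4 among coding genes at lower coordinates, shares 37.8% of its exonic bases with the antisense transcript Gm17690 on the opposite strand. Gm17690 (0.28, SE 0.233) also overlaps the first exon of Sf3b4, over 3.93% of the exonic bases of Sf3b4. The sources used here do not say whether reads were assigned by strand, so the reads of these 3 genes may be shared. Sv2a, which encodes a synaptic vesicle protein and starts just past Sf3b4 at 0.01 Mb, had a log2 fold change of -0.06 (SE 0.227). For the noncoding Gm43375, Gm20628, Gm24830 and Gm26654 it was -0.27, -0.26, 0.69 and -0.15, each with a standard error of 0.194 or more.

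**Figure D3:**
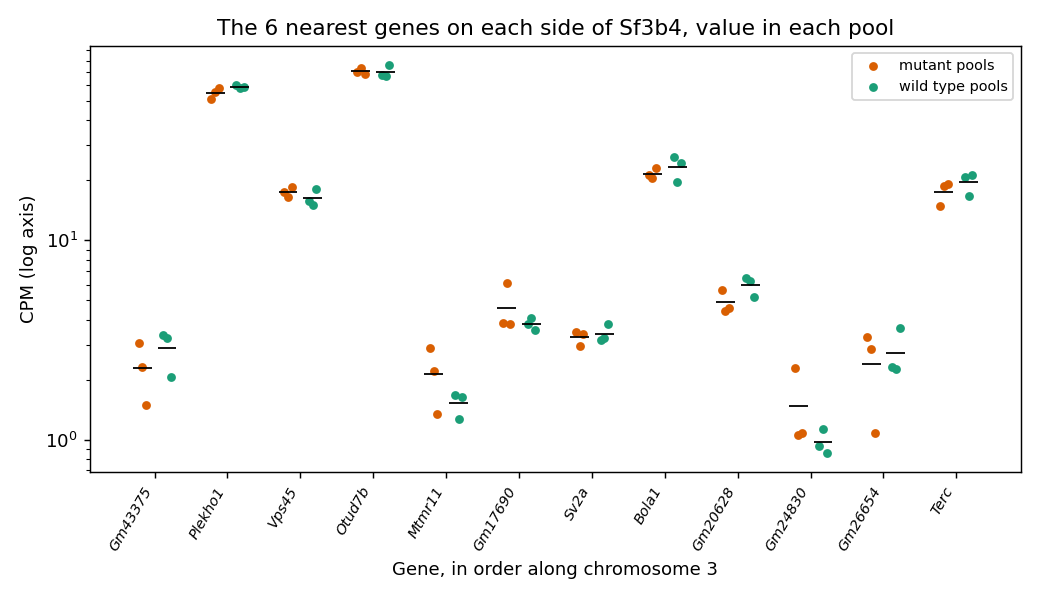
CPM (vertical axis, log scale) in each pool for the 6 nearest genes on each side of Sf3b4, in order along the chromosome, with mutant pools in orange, wild-type pools in green and a line at each mean of 3 pools. The pools of the genotypes overlap in 11 of the 12 genes, the exception being Plekho1 with 51.1 to 58.0 CPM in the mutant pools and 58.2 to 60.4 CPM in the wild-type pools. Over all genes tested the groups did not overlap in 28.3%.

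Within 1 Mb of Sf3b4, Arnt, Polr3c and Acp6 were lower in the mutant pools and Txnip was higher. Arnt, which encodes the shared dimer partner of hypoxia-inducible factors and the aryl hydrocarbon receptor, lies at -0.74 Mb (chromosome 3, 95434388 to 95497240, plus strand). It had 30.8, 30.5 and 28.7 CPM in the mutant pools and 44.2, 48.0 and 43.4 CPM in the wild-type pools. Every mutant pool was below every wild-type pool, and each genotype varied little. The log2 fold change was -0.58 (edgeR adjusted p = 0.00138, SE 0.091, n = 3 pools each).

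Txnip, which encodes an inhibitor of thioredoxin that also restrains glucose uptake, lies at 0.39 Mb (96557957 to 96561883, plus strand). It had 59.7, 53.6 and 58.2 CPM in the mutant pools and 39.5, 44.6 and 39.8 CPM in the wild-type pools, a log2 fold change of 0.47 (edgeR adjusted p = 0.00519, SE 0.0895). Txnip lies inside the opposite-strand transcript Gm15441, which had 13 counts in all pools. Polr3c, a subunit of RNA polymerase III, lies at 0.54 Mb and had 28.6, 29.4 and 29.3 CPM in the mutant pools against 34.8, 37.3 and 37.9 CPM in the wild-type pools (-0.33, edgeR adjusted p = 0.0395, SE 0.0915).

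Acp6 and Bcl9 lie next to each other and point toward each other, and both were lower. Acp6 (97158777 to 97177299, plus strand) encodes a phosphatase of lysophosphatidic acid. It had 9.28, 9.26 and 11.2 CPM in the mutant pools and 24.2, 15.8 and 20.4 CPM in the wild-type pools. The groups are well apart, although the wild-type pools differ among themselves. The log2 fold change was -1.05 (edgeR adjusted p = 0.000978, SE 0.156, n = 3 pools each). Bcl9 (97203662 to 97297917, minus strand), which encodes a co-activator of beta-catenin in WNT signalling, had 42.2, 48.6 and 43.1 CPM in the mutant pools and 63.3, 62.6 and 51.2 CPM in the wild-type pools. Its change was smaller, at -0.40 (edgeR adjusted p = 0.0265, SE 0.1), and the third wild-type pool lay close to the mutant pools.

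The largest rise and the largest fall among the genes past the threshold belonged to members of the Mab-21 family, which lie far apart near opposite parts of the interval. Mab21l3 (5.64 Mb, 101813076 to 101848959, minus strand) had 57, 46 and 32 counts in the mutant pools and 9, 5 and 17 counts in the wild-type pools. That is 4.68, 4.84 and 4.33 CPM in the mutant pools against 0.834, 0.706 and 1.46 CPM in the wild-type pools, so the gene was barely read in wild-type heads. Its log2 fold change was 2.14 (edgeR adjusted p = 0.000408, SE 0.291, n = 3 pools each). Mab21l2 (-9.63 Mb, 86545581 to 86548629, minus strand), which the mouse eye needs to form, went the other way. It had 6.48, 6.31 and 6.23 CPM in the mutant pools and 12.9, 17.4 and 15.6 CPM in the wild-type pools, a log2 fold change of -1.25 (edgeR adjusted p = 0.000166, SE 0.154). Mab21l2 lies inside Lrba on the opposite strand and shares 36% of its exonic bases with it. Lrba, the first gene of the interval, which encodes a vesicle trafficking protein, had a log2 fold change of 0.05 (edgeR adjusted p = 0.758, SE 0.0894), and it rose after correction for gene length and GC content (0.27, edgeR adjusted p = 0.02). Lrba had 3904 counts over 19324 exonic bases, and Mab21l2 had 628 counts over 3049, so their read depth per base was similar.

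At the other end, Rap1a (9.55 Mb), which encodes a small GTPase, and Wdr77 (9.79 Mb), a partner of the arginine methyltransferase PRMT5, did not pass, with log2 fold changes of 0.19 (SE 0.123) and 0.09 (SE 0.0993).

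**Figure D4:**
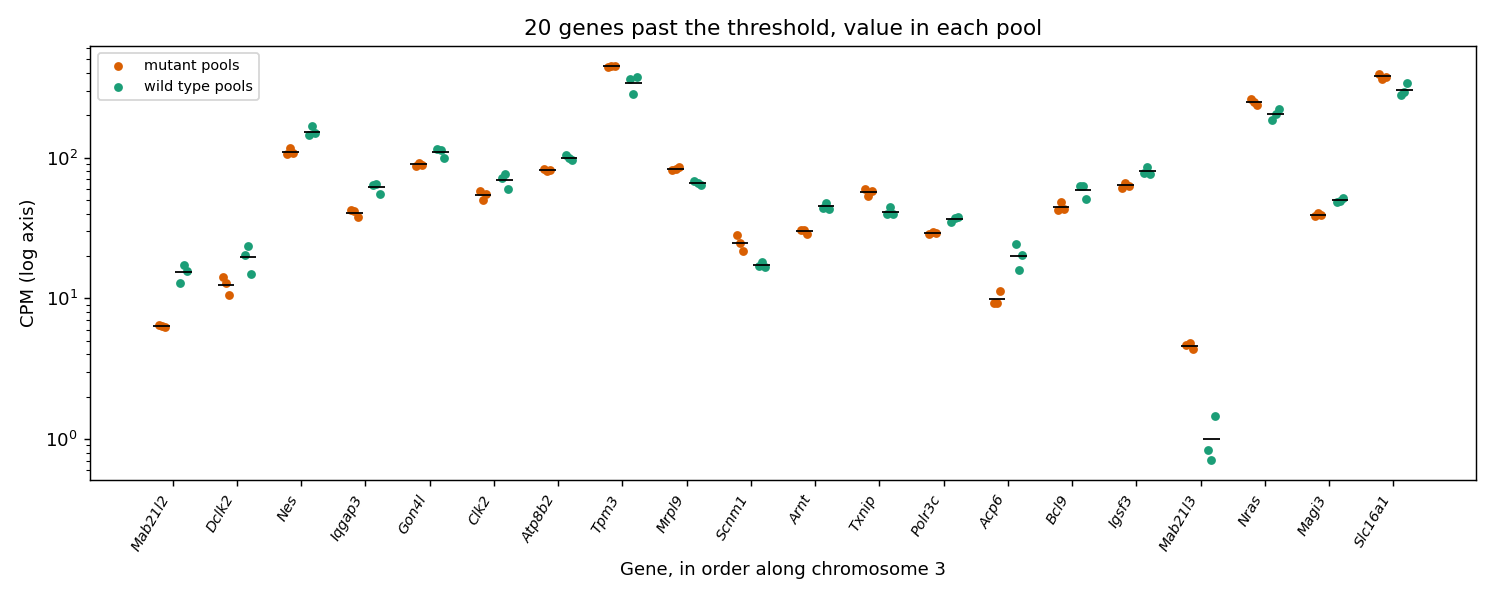
CPM (vertical axis, log scale) in each pool for 20 of the 21 genes past the threshold, in order along chromosome 3, with mutant pools in orange, wild-type pools in green and a line at each mean of 3 pools. None of these 20 genes has overlapping pools, beside 28.3% of all genes tested that do not overlap. The 20 were drawn for passing the test on these same pools, so their separation adds no support. Most differences are small beside the range of levels between genes. CPM is not corrected for gene length, so heights compare genotypes and not genes.

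Genes of RNA processing and translation changed in both directions. Of 19 genes of this list in the interval 1 was higher and 2 were lower, with a median log2 fold change of -0.03, against 0.00 over all genes tested. Over all genes tested 2.65% were higher and 3.88% lower, which is the background for this list and for those below. The lists are small, and their counts were described but not tested. Scnm1, which encodes a zinc finger splicing factor, was higher at 28.0, 24.6 and 21.7 CPM in the mutant pools against 17.1, 18.2 and 16.6 CPM in the wild-type pools. All mutant pools lay above the wild-type pools, with a log2 fold change of 0.53 (edgeR adjusted p = 0.0138, SE 0.117). Clk2, a kinase that phosphorylates SR splicing factors, was lower (-0.35, edgeR adjusted p = 0.0457, SE 0.0984), as was Polr3c.

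Among 31 genes of transcription and chromatin 1 was higher and 4 were lower, with a median of -0.05. Beside Mab21l2, Arnt and Bcl9, the fourth lower gene was Gon4l (-0.29, edgeR adjusted p = 0.0387, SE 0.0777), a nuclear regulator of transcription that was named after its values were seen. Its call was lost with DESeq2 (adjusted p = 0.0559), limma-voom (0.0568), length and GC offsets (-0.17, 0.0982) and the replicate block (0.0625). It shares 14.6% of its exonic bases with opposite-strand genes, mainly Msto1.

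In metabolism and solute transport 2 of 26 genes were higher and 2 lower, with a median of 0.03. Slc16a1, which encodes a carrier of lactate and pyruvate, had 394.5, 365.1 and 377.6 CPM in the mutant pools and 277.1, 295.1 and 339.3 CPM in the wild-type pools (0.32, edgeR adjusted p = 0.0306, SE 0.0821). Its wild-type pools spread widely, and the third lay close to the mutant pools. Txnip was the other higher gene. Atp8b2, a phospholipid flippase of the P4-ATPase family, was lower (-0.29, edgeR adjusted p = 0.0286, SE 0.0736), as was Acp6.

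Of 11 genes for mitochondrial proteins, Mrpl9 was the only gene past the threshold. It encodes a protein of the large mitochondrial ribosomal subunit and had 81.8, 83.4 and 85.6 CPM in the mutant pools against 68.3, 65.8 and 63.9 CPM in the wild-type pools (0.34, edgeR adjusted p = 0.015, SE 0.0761). The pools of each genotype lay close together. The list had a median of 0.06 and a range of -0.13 to 0.34 on the log2 scale.

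Signalling genes included 1 higher and 2 lower among 20, with a median of 0.01. Nras, which encodes a RAS GTPase, had 261.9, 249.2 and 235.0 CPM in the mutant pools and 186.4, 204.3 and 221.4 CPM in the wild-type pools (0.29, edgeR adjusted p = 0.0437, SE 0.0799). The nearest pools of the genotypes differ by little. Iqgap3, a scaffold of RAC and CDC42 signalling that is typical of dividing cells, was lower, with 42.3, 42.0 and 37.9 CPM in the mutant pools against 64.3, 64.6 and 55.5 CPM in the wild-type pools (-0.59, edgeR adjusted p = 0.00144, SE 0.0921). Magi3, a scaffold at cell junctions, was lower too, by a smaller amount (-0.34, edgeR adjusted p = 0.0248, SE 0.0852).

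Of 17 genes of the cytoskeleton, adhesion and matrix 1 was higher and 2 were lower, with a median of 0.07. Nes, which encodes nestin, the intermediate filament of neural progenitors and of migrating crest, had 107.0, 117.0 and 107.4 CPM in the mutant pools and 144.6, 166.7 and 148.7 CPM in the wild-type pools. Every mutant pool was lower, with a log2 fold change of -0.47 (edgeR adjusted p = 0.0021, SE 0.0778, n = 3 pools each). The neural tube markers summed to 382 to 426 CPM in the mutant pools and 378 to 400 CPM in the wild-type pools. The sum of the crest markers is given above. The part of either tissue in the lower level of Nes was not tested. Igsf3, an immunoglobulin superfamily membrane protein gene, was also lower (-0.33, edgeR adjusted p = 0.0239, SE 0.0819). Tpm3, a tropomyosin of actin filaments, was higher at 444.2, 450.9 and 450.4 CPM in the mutant pools against 363.8, 282.1 and 375.3 CPM in the wild-type pools (0.40, edgeR adjusted p = 0.0217, SE 0.0938).

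No gene passed in the remaining lists with edgeR as described above, DESeq2 or limma-voom. Among 9 genes of ubiquitin, proteasome and lysosomal breakdown the fold changes ran from -0.20 to 0.06, with Ubap2l at -0.18 (SE 0.0735) and the deubiquitinase gene Mindy1 at -0.20 (SE 0.135). Among 19 genes of membrane traffic they ran from -0.40 to 0.34, with Ssr2 of the endoplasmic reticulum translocon at 0.20 (SE 0.0773) and Dennd4b, an activator of Rab GTPases, at -0.40 (SE 0.191). Among 6 genes of the cell cycle, DNA repair and cell death Bnipl (0.65, SE 0.283) and Jtb (-0.26, SE 0.116) had the smallest p-values. Unadjusted p-values under 0.05 were found for 1, 1 and 2 genes of these lists: Ubap2l, Ssr2, and both Bnipl and Jtb. In other fits with edgeR 3 genes of membrane traffic passed: Lrba after correction for gene length and GC content (adjusted p = 0.02), Ssr2 with the Y-linked share of counts as a covariate (adjusted p = 0.0491), and Dennd4b without wild-type replicate 3 (-0.59, adjusted p = 0.0355). Of 59 genes in no list, Mab21l3 was higher and Dclk2, a doublecortin-like kinase that binds microtubules, was lower (-0.61, edgeR adjusted p = 0.041, SE 0.165).

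**Figure D5:**
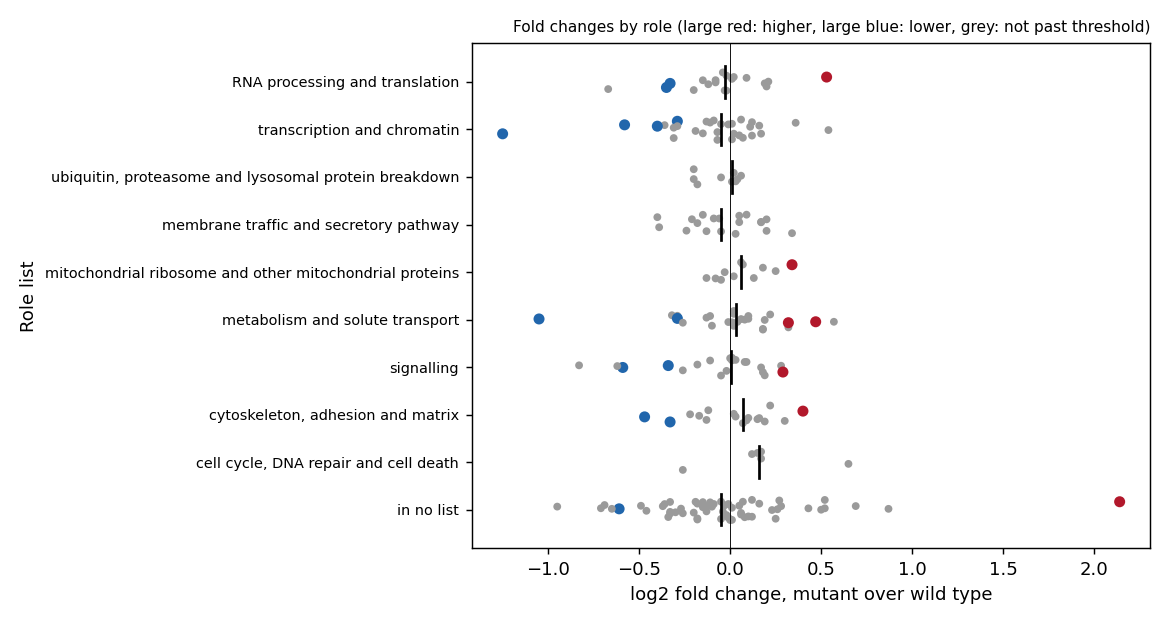
Fold changes (horizontal axis, log2 mutant over wild type) of 216 of the 217 genes by role list (vertical axis), with large red points for genes higher and large blue points for genes lower in the mutant pools, grey points for genes not past the threshold and a line at the median of each whole list. The medians run from -0.05 to 0.16, and the genes past the threshold are spread over 6 lists and the genes in no list.

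Few of the 21 changes held with any 1 pool left out. Mab21l3, Mab21l2, Acp6, Iqgap3, Arnt and Nes passed in all 6 such fits, with log2 fold changes of 1.99 to 2.55, -1.36 to -1.16, -1.17 to -0.89, -0.66 to -0.54, -0.61 to -0.54 and -0.51 to -0.40 in that order. The other 15 lost the call without mutant replicate 1, the most deeply sequenced pool. Txnip lost it in that fit alone, and Scnm1 also without mutant replicate 2. Slc16a1, Nras, Dclk2, Clk2, Polr3c and Gon4l each lost it in 5 of the 6 fits. Clk2, Polr3c and Gon4l also missed the threshold with DESeq2, Nras, Dclk2, Clk2 and Gon4l with limma-voom, and Dclk2, Igsf3, Atp8b2 and Gon4l after correction for gene length and GC content.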

How the data were processed

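Total RNA was sequenced from 6 pools of mouse embryo heads; RNeasy micro extraction and TruSeq Standard Total RNA libraries were used, per the labels' protocols. The authors deposited raw read counts per Ensembl gene ID, not normalized. Per the submitters' processing notes the genome build was mm10; aligner, counter, annotation and strand setting: not given in the sources used here. Positions and symbols came from GENCODE M21 (GRCm38), which matched 54495 of 54532 IDs. Exons of another gene cover over 10% of the exonic bases in 49 of the 217 genes, on the opposite strand in 40.

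Genes were filtered with filterByExpr, scaled by TMM and tested with edgeR's quasi-likelihood test (robust, two-sided) over all 14008 genes, Benjamini-Hochberg adjusted, at a threshold of 0.05. The standard error is the fold change divided by the square root of F. CPM is given per pool. No set test was run. Within a genotype, counts of any 2 pools differed beyond sampling noise (chi-square of 3.01 to 10.2 for each degree of freedom); the labels do not say that they came from separate litters, so p-values measure the spread between these pools. The fit was tested on simulated data. The genes, role lists and alternatives were chosen with earlier results of these data known. Named genes are Sf3b4, the 12 largest rises and falls past the threshold with at least 1 CPM in the higher group, the 6 nearest genes on each side, the 2 nearest to each end, and in each role list up to 3 genes past the threshold, lowest p first, or failing that the lowest 2. Values of some genes are not reported here. The role lists hold 158 of the 217 genes. Tools were edgeR 4.0.16, DESeq2 1.42.0 and limma 3.58.1 in R 4.3.3, with Python 3.11.15 and matplotlib 3.10.9. Alternatives were DESeq2, limma-voom, RLE factors, no filter, no robust estimation, each pool left out, the replicate number as a block, the Y-linked share of counts as a covariate, only the pools that had Y-linked reads, offsets for exon length and GC content (splines with 4 degrees of freedom), a threshold of 0.1, a 5 Mb interval and at least 200 counts.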

Additional observations from a re-analysis of the deposited data

How the results depend on the processing

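Named genes kept their direction wherever a call was made, under every alternative run. The 21 calls in the interval were 17 with DESeq2 (of 200 genes with an adjusted p), 16 with limma-voom, 21 with RLE factors, 18 without robust estimation, 25 without the filter, 24 with length and GC offsets, 30 with Y-linked reads as a covariate, 28 at a threshold of 0.1, 15 with the replicate block and 19 of 165 genes with at least 200 counts. The share in the interval over that of all genes ran from 0.925 to 2.37. The 2.37 came without the filter (11.5% beside 4.86%). All genes then included those with few reads, while genes of the interval still had to reach their minimum count. With at least 200 counts the ratio was 1.76, but that minimum was applied to the interval alone. These 2 ratios compare unlike sets of genes, so they do not measure an excess in the interval. Under the other settings the ratio ran from 0.925 to 1.72. In the pools with Y-linked reads alone 9 passed (4 higher, 5 lower; 8 in role lists), with 2 at 1 to 2.5 Mb and 4 at 5 to 10 Mb, and 17 genes passed on chromosome 3 outside the interval, against 32 in all pools. That count outside was 62 with Y-linked reads as a covariate, 50 without the filter and 56 at 0.1. At 1 to 2.5 Mb 7 genes passed with the Y-linked covariate and 7 at 0.1; at 2.5 to 5 Mb 1 did with that covariate and 1 with length and GC offsets. Length and GC offsets gave 15 higher and 9 lower genes against 8 and 13, so the balance of directions depended on them, and Sf3b4 passed (-0.26, edgeR adjusted p = 0.0458). Within 5 Mb of Sf3b4 8 passed, 4 higher and 4 lower, all 8 in role lists. With the genes left out by name included, chosen after seeing the data, 14 were higher and 2 passed at 2.5 to 5 Mb.

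With each pool left out in turn, 6 to 27 genes passed, 1 to 11 higher and 5 to 16 lower, 5 to 25 in role lists. By distance the ranges were 2 to 4 under 1 Mb, 0 to 6 at 1 to 2.5 Mb and 4 to 17 at 5 to 10 Mb, and outside the interval 9 to 65. Sf3b4 ran from -0.32 to -0.17 and passed without wild-type replicate 3 (edgeR adjusted p = 0.0288). Deviations of same-numbered pools correlated at -0.161, 0.0515 and -0.0598, and those of differently numbered pools at -0.208 to 0.274. No pairing by number was visible, but 3 pools per genotype are too few to exclude one. The replicate block left 8 calls at 5 to 10 Mb, and 14 of the 21 genes kept their call. The cause of these shifts was not tested. Genes with few counts, such as most noncoding genes near Sf3b4, could show only large changes.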
